A study of Oryza sativa Indica Group with 4 samples.

Results

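The cellulose synthase-like (CSL) genes of rice were examined in panicle primordia of lines with a high or a low grain number per panicle. A gene was a member when its symbol or a synonym, with the Os prefix and case ignored, was CSL followed by A, C, D, E, F or H and a number. The gene table held 26 such genes, of which 20 were paired with at least 1 probe set of the array, out of 17905 genes paired in all. The 20 genes had 24 probe sets. CSLE2 and CSLF6 had 3 each, and the brightest probe set of a gene stood for it. CSLA3, CSLA4, CSLE6, CSLF3, CSLF4 and CSLF9 had no probe set in the pairing and were not analysed here.

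RNA came from primordia of Oryza sativa (Indica Group) at the stage numbered 0 by the submitters. The RNA of 10 recombinant inbred lines (RILs), fixed by repeated selfing after a cross of 2 cultivars, was pooled into each bulk. The groups were bulks of high and of low grain number, with 2 biological replications each, giving 4 Affymetrix rice arrays. The cultivars, plant age and growth conditions are not given in the sources used here, and a bulk does not show how its lines differ from each other. In such samples, fewer cells of a type and less RNA per cell cannot be told apart.

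CSL proteins are glycosyltransferases of the Golgi or plasma membrane that resemble the cellulose synthases (CESA). Several of their subfamilies build chains of non-cellulosic wall polysaccharides. CSLA enzymes make mannan and glucomannan, and CSLC enzymes make the glucan backbone of xyloglucan, roles best shown in Arabidopsis. CSLF and CSLH enzymes make the mixed-linkage glucan of grass cell walls. CSLD proteins serve tip growth and dividing or expanding cells, while the role of CSLE is not settled. Young panicles are rich in dividing cells, whose new walls are primary walls.

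No CSL gene passed the test between the high and low grain number bulks. Of the 20 genes, 16 were bright enough to be tested and 0 of them passed an adjusted p of 0.05 (limma, Benjamini-Hochberg over all 34316 tested probe sets, two-sided). At an unadjusted p under 0.05 the count was 0 as well. Over all tested probe sets, 0.568% passed the adjusted threshold and 8.24% the unadjusted one, so counts of 0 among 16 are near what the whole array gives. The smallest adjusted p among the members was 0.704, for CSLC9.

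Differences are given throughout as high minus low on the scale of log2(intensity + 16), with limma's moderated standard error. Intensities are quantile-normalised, and 16 is a constant that damps the noise of dim probe sets and pulls their differences towards 0. The 16 tested genes had a median difference of 0.04, against 0.01 for all tested probe sets. Their differences ran from -0.39 for CSLC9 to 0.39 for CSLC2. A negative difference was found for 7 of the 16 genes, against 47.9% of all tested probe sets. The sign was therefore mixed within the family, as it was over the array.

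The precision of 2 arrays against 2 set how small a change could be seen. The 95% intervals of all 16 genes lay within 2-fold in either direction, reaching from -0.85 at the lowest to 0.91 at the highest. This held for 93.3% of all tested probe sets too. It depended on the scaling and on single arrays. Under the authors' scaling 4 intervals passed 2-fold, with lower bounds of -1.28 for CSLA1, -1.39 for CSLC9, -1.09 for CSLD2 and -1.09 for CSLE2. After median centring 2 did, CSLA1 (-1.06) and CSLC9 (-1.18), and without 1 array 2 to 5 did. Intervals within 1.5-fold either way were found for 4 of the 16 genes, against 40.4% of all. The intervals of the other 12 genes take in a change of 1.5-fold. For 14 of the 16 genes the difference between groups was smaller than the larger gap between 2 arrays of one group, and this was so for 74.7% of all tested probe sets. The plot of levels by array shows the overlap of the groups.

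**Figure D1:**
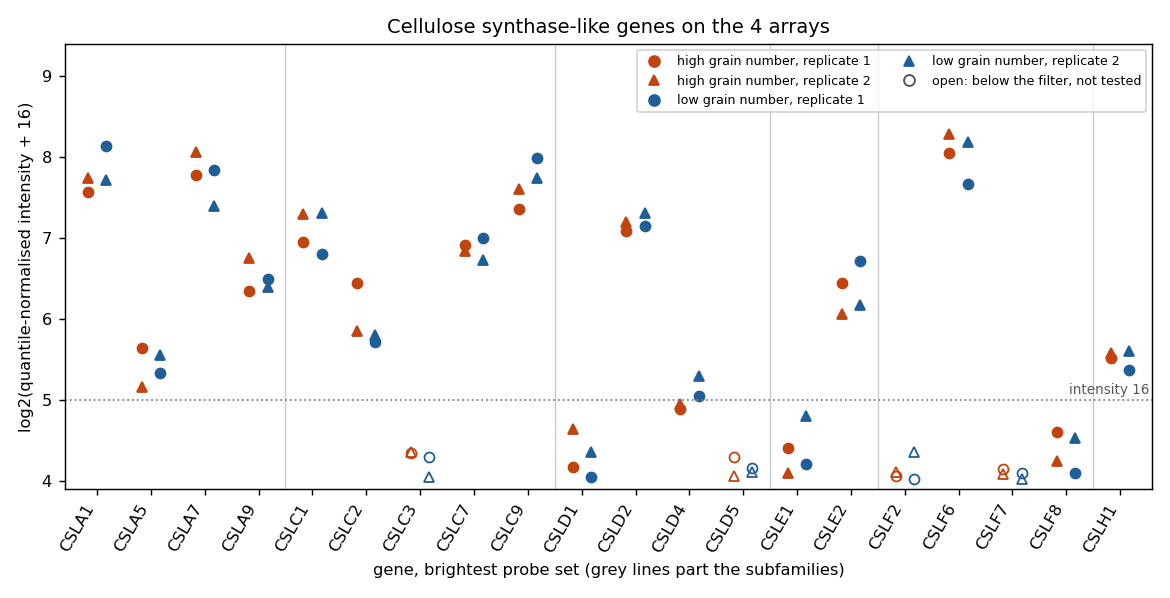
Level of the 20 CSL genes on each array, as log2(quantile-normalised intensity + 16), for the brightest probe set of each gene. Colours mark the group and symbols the replicate; open symbols are the 4 genes below the filter. The groups did not overlap for CSLC2, CSLC9 and CSLD4 among the 16 tested genes. Heights of different genes are not comparable, because probe sets differ in brightness.

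The groups did not overlap in 3 of the 16 tested genes, against 37.1% of all tested probe sets. Those were CSLC2, higher in both high bulks, and CSLC9 and CSLD4, lower in both high bulks. All 3 had adjusted p-values of 0.704 or more.

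The CSLA genes encode mannan synthases, and all 4 on the array were tested. CSLA1 (LOC4328585), which the gene table also lists under the name CSLA9, had intensities of 174 and 198 in the high bulks and of 266 and 194 in the low bulks. The groups overlapped because low grain number replicate 2 lay between the 2 high arrays, and the difference was -0.27 ± 0.22 (SE, n = 2 per group, limma adjusted p = 0.843). CSLA7 (LOC4343994) had 204 and 252 in the high bulks and 213 and 153 in the low bulks. Its difference pointed the other way, at 0.30 ± 0.22 (limma adjusted p = 0.824). The other members were CSLA9 (LOC4341571), with 0.10 ± 0.22, and CSLA5 (LOC4332966), with -0.04 ± 0.23. CSLA5 read 19.8 to 33.9 on the arrays, not far above the added constant. With 2 differences of each sign, the CSLA median was 0.03.

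The CSLC genes, which make the xyloglucan backbone, held the largest differences of both signs among the 16 tested genes. CSLC9 (LOC4334258) had intensities of 148 and 179 in the high bulks and of 239 and 199 in the low bulks. Both high arrays lay below both low arrays, and the difference was -0.39 ± 0.21 (95% interval -0.85 to 0.07, limma adjusted p = 0.704). CSLC2 (LOC4347118) had 70.7 and 41.9 in the high bulks and 36.6 and 39.6 in the low bulks. High grain number replicate 1 alone stood apart there, while the other 3 arrays lay close together. The CSLC2 difference was 0.39 ± 0.24 (95% interval -0.13 to 0.91, limma adjusted p = 0.760), and it was 0.10 without that array.

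CSLC1 (LOC4325496) had 108 and 141 in the high bulks and 96.0 and 143 in the low bulks. In both groups the replicate 2 array was the brighter one, and the difference was 0.06 ± 0.24. CSLC7 (LOC4339283) had 105 and 98.9 against 112 and 89.7, with a difference of 0.02 ± 0.21, the nearest to 0 among the 16 genes. Its probe set is of the kind that Affymetrix marks with an x, whose probes can also bind other transcripts. CSLC3 (LOC4345095) was below the filter, with intensities of 0.45 to 4.53.

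Mixed-linkage glucan is made by CSLF and CSLH enzymes, and CSLF6 is the main synthase of this glucan in rice. CSLF6 (LOC4344719) had intensities of 248 and 295 in the high bulks and of 187 and 277 in the low bulks. The groups overlapped, since low grain number replicate 2 lay between the 2 high arrays. Its difference was 0.24 ± 0.23 (95% interval -0.26 to 0.73, limma adjusted p = 0.877). As deposited, before quantile normalization, the same probe set read 225.7 and 276.9 in the high bulks and 158.0 and 360.3 in the low bulks. The low arrays were thus farther apart from each other than the groups were.

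A second CSLF6 probe set gave another picture at a much lower signal. It had intensities of 7.20 and 6.30 in the high bulks and of 0.475 and 0.700 in the low bulks. The groups did not overlap, and the difference was 0.46 ± 0.18 (unadjusted p = 0.0252 and adjusted p = 0.512, limma over all probe sets). It did not pass the adjusted threshold under the settings in which it was tested. With log2(value + 1) and with the filter at the 60th percentile it was below the filter. The third CSLF6 probe set had 4.15 and 0.875 against 2.65 and 2.85 and was below the filter. Of the gene's 3 probe sets, the 2 tested ones had a positive difference, and only the brightest exceeded an intensity of 16.

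The other CSLF genes were dim in these primordia. CSLF8 (LOC4343552) had 8.28 and 2.95 in the high bulks and 1.05 and 6.95 in the low bulks, with a difference of 0.12 ± 0.21. CSLF2 (LOC4343553), which directs mixed-linkage glucan synthesis when rice CSLF2 is placed in Arabidopsis, had 0.25 to 4.53 and was below the filter. CSLF7 (LOC4348365), with 0.20 to 1.65, was below it too. CSLF9, CSLF8, CSLF2, CSLF4 and CSLF3 lie in a row in the gene table, with 1 protein-coding gene among them, between CSLF2 and CSLF4. The 2 measured genes of this row, CSLF8 and CSLF2, were both under an intensity of 16 on all 4 arrays.

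CSLH1 (LOC4348359), a mixed-linkage glucan synthase known from barley, had intensities of 29.8 and 31.8 in the high bulks and of 25.5 and 32.7 in the low bulks. The high arrays lay between the low ones, and the difference was 0.06 ± 0.21 (limma adjusted p = 0.978). In the gene table CSLH1 and CSLF7 are separated by 6 protein-coding genes.

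The CSLD genes act in tip growth and in growing tissue. CSLD2 (LOC4339895) had 121 and 131 in the high bulks and 126 and 142 in the low bulks. These 4 values were close to each other, and the difference was -0.08 ± 0.20 (95% interval -0.53 to 0.36, limma adjusted p = 0.964). CSLD4 (LOC107276048), whose rice mutants are dwarfs with narrow leaves, had 13.7 and 14.9 in the high bulks and 17.1 and 23.3 in the low bulks. Both high arrays were below both low ones, with a difference of -0.25 ± 0.20 (limma adjusted p = 0.843). The CSLD4 values lie near the added constant of 16, and its probe set carries the x mark described for CSLC7.

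CSLD1 (LOC4349505), needed for root hair growth in rice, had 2.05 and 8.85 in the high bulks and 0.475 and 4.53 in the low bulks. Its difference was 0.20 ± 0.21, and the gap between the 2 high arrays was 0.46 on the same scale. CSLD5 (LOC4340943) had 0.70 to 3.50 and was below the filter. Within the CSLD genes, only CSLD2 and CSLD4 exceeded an intensity of 16 on any array.

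CSLE2 (LOC4330583) had intensities of 70.8 and 50.6 in the high bulks and of 88.8 and 56.4 in the low bulks. In both groups replicate 1 was the brighter array, and the difference was -0.20 ± 0.25 (limma adjusted p = 0.914). Its other 2 probe sets gave -0.08 ± 0.23 and -0.09 ± 0.19, so all 3 had the same sign and none passed. Both were dim: the former read 12.1 to 23.9 and the latter 8.50 to 11.8, near or under the added constant. The latter also carries the x mark described for CSLC7. CSLE1 (LOC4347370) had 5.20 and 1.05 against 2.50 and 11.8, with a difference of -0.25 ± 0.23. That value rests on low grain number replicate 2, without which it was 0.04.

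In all, 7 of the 20 genes stayed below an intensity of 16 on all 4 arrays. These were CSLC3, CSLD1, CSLD5, CSLE1, CSLF2, CSLF7 and CSLF8, and 3 of them (CSLD1, CSLE1 and CSLF8) still passed the filter. For those 3 the narrow intervals come from the added constant. With log2(value + 1) the interval was -1.36 to 3.24 for CSLD1, -2.95 to 1.14 for CSLE1 and -1.40 to 2.57 for CSLF8. A 2-fold change in these dim genes was therefore not detectable, and they were not shown to be equal in the groups. CSLC2 (upper bound 1.21) and CSLD4 (lower bound -1.26) also passed 2-fold on that scale.

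The subfamilies were summarised by the mean log2(intensity + 16) of their tested genes on each array, as a description. The 4 CSLA genes had means of 6.83 and 6.93 in the high bulks and of 6.95 and 6.77 in the low bulks. The 4 CSLC genes had 6.92 and 6.90 against 6.88 and 6.90. The CSLA means of the groups overlapped, and the CSLC means of all 4 arrays lay between 6.88 and 6.92. The 3 CSLD genes had 5.39 and 5.59 against 5.41 and 5.66, where the replicate 2 arrays of both groups were the higher ones. The 2 CSLE genes had 5.42 and 5.07 against 5.46 and 5.49, and the 2 CSLF genes had 6.32 and 6.26 against 5.88 and 6.36. The CSLF mean thus stood apart on low grain number replicate 1, where CSLF6 and CSLF8 both had their lowest value.

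**Figure D2:**
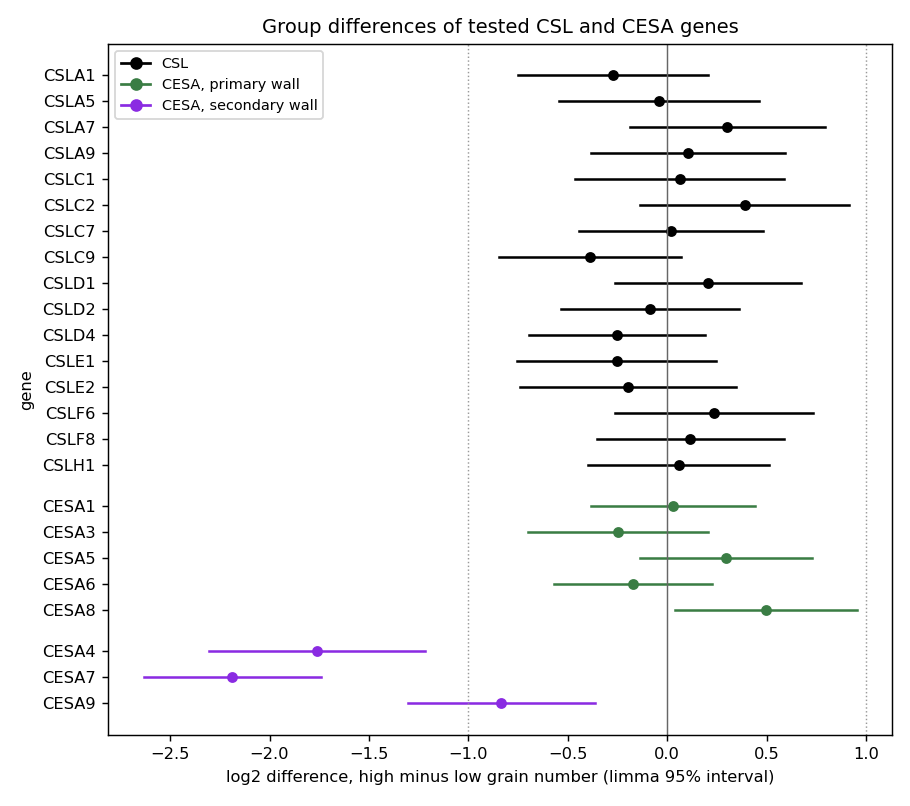
Difference between groups (high minus low, log2 scale) with limma's 95% interval for the 16 tested CSL genes and for 8 cellulose synthase genes. Dotted lines mark 2-fold. In the main setting shown, all CSL intervals cross 0 and stay within 2-fold, whereas those of CESA4 and CESA7 lie below -1. The interval of CESA9 lies below 0 and crosses -1.

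The cellulose synthases, the closest relatives of the CSL proteins, served for comparison; the 3 secondary wall genes among them were chosen with their low values known. Of those 3 genes, 2 passed the threshold, both lower in the high grain number bulks, against 0.414% of all tested probe sets called lower. CESA7 (LOC4348853) had intensities of 11.5 and 10.9 in the high bulks and of 110 and 106 in the low bulks, a difference of -2.19 ± 0.20 (95% interval -2.63 to -1.74). CESA4 (LOC4324625) had -1.76 ± 0.25 (95% interval -2.30 to -1.22). In the main setting the intervals of all 16 tested CSL genes lay above both of these, though the difference between the gene sets was not itself tested. With log2(value + 1) those of CSLE1, CSLF8, CSLD1 and CSLD4 reached down to -2.95, -1.40, -1.36 and -1.26. Under the authors' scaling those of CSLC9 and CSLA1 reached -1.39 and -1.28. The CESA4 and CESA7 intervals were read in the main setting only. The third secondary wall gene, CESA9 (LOC4347093), was dimmer, with 2.75 and 6.90 in the high bulks and 26.0 and 16.5 in the low bulks. Its difference was -0.83 ± 0.21 (95% interval -1.30 to -0.36, limma adjusted p = 0.173). That interval overlaps those of CSL genes such as CSLC9 (-0.85 to 0.07).

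The 5 primary wall cellulose synthases, like the CSL genes, had 0 calls by limma. Before adjustment 1 of the 5 reached 0.05, against 8.24% of all tested probe sets. The median of the 5 was 0.03. CESA2 (LOC4334515), which is in neither set, had 0.06 ± 0.20. CESA8 (LOC4342699) came closest, with 139 and 142 in the high bulks and 85.6 and 105 in the low bulks and a difference of 0.50 ± 0.21 (limma adjusted p = 0.562). CESA5 (LOC4334710) had 0.30 ± 0.20 (limma adjusted p = 0.790).

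Other genes of wall polysaccharides gave no call. Of 8 tested genes for xylan synthesis, limma called 0, and 0 reached 0.05 before adjustment; their median was 0.09. XAT2, an arabinosyltransferase of xylan, had 0.34 ± 0.21 there (limma adjusted p = 0.765). GT43E (LOC4339589) had 0.25 ± 0.23 (limma adjusted p = 0.869). The one xyloglucan endotransglucosylase gene matched by name, XTH8 (LOC4345019), had -0.08 ± 0.20 (limma adjusted p = 0.964).

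A list of hydrolases took in MAN genes, which encode mannanases, and GLU genes, many of which are known as cellulase-type endo-glucanases instead. Of its 15 genes 14 were tested and limma called 0, with a median of 0.09. Before adjustment 2 of the 14 reached 0.05, against 8.24% of all tested probe sets. GLU10 (LOC4330667) had 11.5 and 18.5 in the high bulks and 37.7 and 35.7 in the low bulks, with a difference of -0.77 ± 0.21 (limma adjusted p = 0.208). MAN7 (LOC4349615) had 11.9 and 15.9 against 3.70 and 8.00, with 0.46 ± 0.20 (limma adjusted p = 0.589). Both sets of arrays were free of overlap, but neither gene passed.

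The list for supply of nucleotide sugars, the substrates of these enzymes, matched 6 tested genes, all of them sucrose synthases. Limma called 0 of them, and their median was -0.23. Before adjustment 1 of the 6 reached 0.05, against 8.24% of all tested probe sets. SUS3 (LOC4343910) had 53.3 and 27.7 in the high bulks and 16.95 and 17.2 in the low bulks, with a difference of 0.73 ± 0.24 (limma adjusted p = 0.387). SUS5 (LOC4335447) had -0.40 ± 0.21 (limma adjusted p = 0.698).

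Marker genes were read to check the tissue. All 7 young panicle and meristem markers on the array were tested, and limma called 0, also before adjustment. The brightest of them were MADS15, at 545 to 716, and OSH1 (LOC4333973), at 527 to 763. Others were dimmer: LAX1 read 9.83 to 15.98 and MADS34 30.45 to 78.3. RFL read 69.2 and 178 in the high bulks and 76.95 and 71.5 in the low bulks, so its high arrays were far apart. Of 6 secondary wall and stem markers, 5 had a negative difference and 4 of these were called lower by limma at an adjusted p of 0.05, where 0.414% of all tested probe sets were. CESA4, CESA7 and CESA9, chosen with their low values known, are among the 6, so the calls of CESA4 and CESA7 are counted here again. Those 3 genes summed to 45.4 and 66.2 in the high bulks and to 277 and 327 in the low bulks. The summed intensity of all 6 markers was 112 to 163 in the high bulks and 477 to 582 in the low bulks. One of these markers, LOC4347540, is a bHLH gene held through its synonym BC1, and MADS18 is in both the panicle and the floral organ list through its synonym MADS2. Of 5 anther tapetum markers, 2 had a negative difference and 1 was called lower, RTS (LOC4326940), which read 0.875 and 1.53 in the high bulks and 224 and 553 in the low bulks. The tapetum sum was 119.7 to 129 in the high bulks and 332 to 673 in the low bulks. That gap rests on RTS: the other 4 markers summed to 118 and 128 in the high bulks and to 108 and 120.2 in the low bulks, which overlap. Limma called 0 of 5 markers of dividing cells. Before adjustment 1 of the 5 reached 0.05, against 8.24% of all tested probe sets. Of these 5 markers, 4 had a negative difference, against 47.9% of all tested probe sets, and the median was -0.27. The groups did not overlap in 3 of the 5, all lower in the high bulks, against 37.1% of all in either direction. The summed intensity of the 5 was 1062 to 1213 in the high bulks and 1231 to 1267 in the low bulks, a narrow gap. Limma called 0 of 8 markers of later floral organs and 0 of 3 of green leaf, also before adjustment, and the sums of both lists overlapped between the groups. The leaf marker CAB2R read 1896 to 2479 on the arrays. The root hair markers had no probe set in the pairing. Whether unequal shares of these tissues touch the CSL values was not tested.

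**Figure D3:**
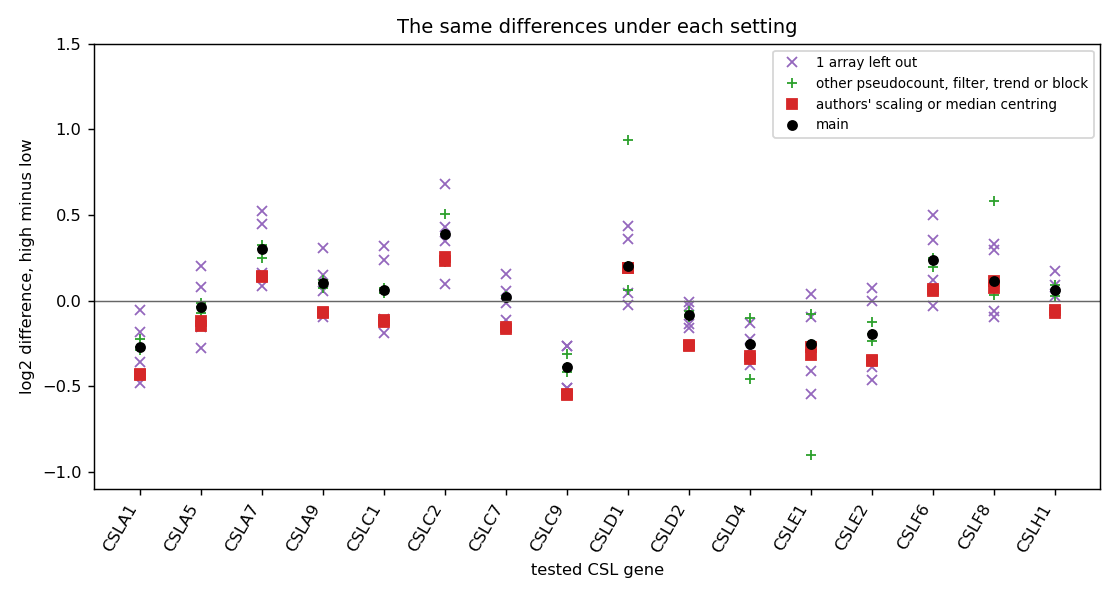
Difference between groups (high minus low, log2 scale) of each tested CSL gene in the main setting (black) and under each alternative. Red squares, the authors' scaling and median centring, lie below the black point for every tested gene, by little for some. Purple crosses leave out 1 array each.

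The direction of most of these differences depended on single arrays or on the scaling, as the plot of differences under each setting shows. Of the 16 genes, 6 kept their sign under all settings and left-out arrays tried, though the filter, trend and replicate block settings could not change a sign. CSLC9, CSLA1, CSLD2 and CSLD4 were negative throughout, and CSLC2 and CSLA7 were positive throughout. Under the authors' scaling 11 of the 16 differences were negative, where the median of all tested probe sets was -0.07, and after median centring 11 were as well. CSLC9 was at -0.55 with the authors' scaling. No CSL gene passed the threshold in any setting.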

How the data were processed

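The deposited table gives 1 linear intensity per probe set and array. Biotin-labelled RNA was hybridised per the labels' protocols, and GCOS 1.2 is named in the submitters' processing notes; its scaling is not given in the sources used here. The trimmed means of the deposited intensities (2% at each end) ran from 36.7 to 55.6, a ratio of 1.52, so quantile normalization was applied, as planned for a difference over 10 percent. The 187 control probe sets were left out of 57381.

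A linear model with group as its only term was fitted to log2(intensity + 16) by limma 3.58.1 under R 4.3.3, using lmFit and trended eBayes. Probe sets under the 40th percentile of the mean were dropped, which left 34316. P-values were adjusted by the Benjamini-Hochberg method over these, at 0.05. The only replicate spread behind them is that between 2 arrays of a group, and this number limits the precision. Trended eBayes draws the spread of each probe set towards that of probe sets of similar mean level. The prior carries 9.05 degrees of freedom, so standard errors, intervals and p-values rest largely on other probe sets. The fit was also run on simulated data with independent noise drawn from its own variances, without the scaling and filter steps. That run does not test the normalization or the true spread between arrays.

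Probe sets were paired with genes through a platform annotation and named from NCBI's gene table (assembly ASM3414082v1), used for names and neighbours only. Of the probe sets, 22436 had 1 gene, 95 several and 34663 none. No sequence is shown, as none was used here. All CSL genes are named. Besides the markers, called genes and up to 2 more with the smallest p were named from other lists. The members and lists were chosen with earlier results of these data known. Alternatives were another scaling, constant, filter, trend, replicate block, probe set and each array left out. Same-numbered arrays deviated together only weakly (correlation 0.11), and the labels do not say that a number marks a shared batch.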

Additional observations from a re-analysis of the deposited data

How the results depend on the processing

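The number of CSL genes past the threshold was 0 under every alternative tried and without any 1 array, and also with every probe set of a member counted. Before adjustment no brightest probe set of a CSL gene reached 0.05 either, except that of CSLC2 without high grain number replicate 2. The filter, trend and replicate block settings leave the difference itself as it is, so their values could not change sign. Of 133 single values under other settings, those included, 8 changed sign. With the authors' scaling these were CSLA9 (-0.074), CSLC1 (-0.12), CSLC7 (-0.17) and CSLH1 (-0.072), and after median centring CSLA9 (-0.067), CSLC1 (-0.11), CSLC7 (-0.16) and CSLH1 (-0.055). The cause was not tested. The median of the tested CSL genes was -0.14 and -0.12 in these settings, against -0.07 for all probe sets in both.

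Without 1 array, 14 of 68 values changed sign. The differences ranged from -0.28 to 0.20 for CSLA5, from -0.10 to 0.31 for CSLA9, from -0.19 to 0.32 for CSLC1, from -0.12 to 0.16 for CSLC7 and from -0.027 to 0.43 for CSLD1. They ranged from -0.55 to 0.039 for CSLE1, from -0.46 to 0.071 for CSLE2, from -0.029 to 0.50 for CSLF6, from -0.10 to 0.33 for CSLF8 and from -0.057 to 0.17 for CSLH1. The median ranged from -0.06 to 0.07. Where a group then held 1 array, its spread was taken from the other group.

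The array-wide count of 195 probe sets (53 higher, 142 lower) was 517 (82 higher, 435 lower) after median centring, and 0 (0 higher, 0 lower) with no filter, where 3849 of 57194 reached 0.05 before adjustment. With log2(value + 1) it was 128, of which 91 were lower. The authors' scaling gave 37 higher and 233 lower. The replicate block gave 654 (189 higher, 465 lower), and with it the smallest adjusted p of a CSL gene was 0.501. The number of pairs is 2, and same-numbered arrays share only a number. Without 1 array the count ranged from 43 to 229 (5 to 45 higher, 36 to 184 lower). Dim signal limits what can be said of CSLD1, CSLE1 and CSLF8.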
